A study of Mus musculus with 2 samples.

Results

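The sinusoidal endothelial cells of the liver carry a set of uptake receptors and identity genes, and 10 of them were followed here by symbol in both deposited matrices: Stab1, Stab2, Lyve1, Mrc1, Fcgr2b, Clec4g, Dnase1l3, Oit3, Gpr182 and Scarf1. All 10 were found in both libraries, among 28200 gene symbols in all. Liver cells were profiled by single-cell RNA sequencing on the BD Rhapsody system, which captures cells in microwells, after partial inferior vena cava ligation (pIVCL), a model of congested hepatic outflow, and there was 1 library per genotype label. The knockout-labelled library came from a Cdh5-CreERT2; Ctgffl/fl mouse, in which a tamoxifen-activated Cre driven by the endothelial Cdh5 promoter can delete floxed Ctgf (now Ccn2), the gene of connective tissue growth factor. The control-labelled library came from a Ctgffl/fl mouse with the floxed alleles and no Cre. Both had been ligated, so neither shows an unligated liver. The treatment text describes a male knockout and its wild-type littermate, while no source used here gives strain, age, tamoxifen schedule or time after ligation.

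The sample titles named the genotypes the other way round from the genotype labels, which were used for the groups. The deleted gene went with the genotype labels: Ccn2 stood at 1030 CPM (counts scaled to 1000000 for all counts of a class in a library) in endothelial cells of the control-labelled library and at 4.91 CPM in the knockout-labelled library. With 1 library each, animal, capture and genotype cannot be told apart, no test between genotypes exists, and every interval below is a 95% interval that covers counting error only. The files held 10000 barcodes each, with 106208933 and 129802501 counts, and 7550 and 8375 cells were kept. Among these, 1811 and 3358 cells were in clusters that expressed the pan-endothelial markers, and are called endothelial cells below. Their median depth was 6626 and 7287.5 counts. All 10 pan-endothelial markers, among them Pecam1 and Cdh5, were measured in them and none differed 1.5-fold between the libraries. No member and no Ccn2 count was used to form clusters, classes or zones.

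Sinusoidal endothelial cells line the liver's capillaries, which have open pores and no continuous basement membrane, and they clear waste from portal blood by receptor-mediated uptake. Stabilin-1 and stabilin-2 (Stab1, Stab2) are large scavenger receptors for modified proteins and glycosaminoglycans, the mannose receptor (Mrc1) takes up glycoproteins and collagen fragments, and the inhibitory Fc receptor encoded by Fcgr2b removes small immune complexes. Ligands enter through clathrin-coated pits and are broken down in lysosomes. Several of these genes are also known from macrophages or lymphatic vessels, so the cell type in which a count was found is given throughout.

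Promoter sequences were at hand in RefSeq (build GRCm38.p6, which is older than the GRCm39 of the deposited counts) for 5 of the 10 members, each running from 250 bases before to 50 bases after the gene's start. There was no entry for Lyve1, Dnase1l3, Oit3, Gpr182 and Scarf1. The promoters of 3 members that were higher in the knockout-labelled library are printed with that of Stab2, which stayed within 1.5-fold, because these genes are set against each other below. Each is given 5′ to 3′ on the gene's strand, and capitals mark a match to the ETS factor core GGAAGT or its reverse complement ACTTCC.
Mrc1 (chr2:14229164-14229463, plus strand): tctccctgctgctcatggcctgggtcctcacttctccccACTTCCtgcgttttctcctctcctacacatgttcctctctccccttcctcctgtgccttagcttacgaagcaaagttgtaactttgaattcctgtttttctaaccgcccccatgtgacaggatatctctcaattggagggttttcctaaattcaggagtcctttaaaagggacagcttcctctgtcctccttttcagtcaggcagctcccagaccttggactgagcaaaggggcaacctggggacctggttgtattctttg
Fcgr2b (chr1:170976022-170976321, minus strand): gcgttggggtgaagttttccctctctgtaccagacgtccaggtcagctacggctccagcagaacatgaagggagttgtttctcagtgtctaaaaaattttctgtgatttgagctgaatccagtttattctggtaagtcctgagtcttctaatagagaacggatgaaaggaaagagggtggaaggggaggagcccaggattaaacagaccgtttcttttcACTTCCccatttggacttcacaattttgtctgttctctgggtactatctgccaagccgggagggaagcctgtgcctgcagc
Clec4g (chr8:3720602-3720901, minus strand): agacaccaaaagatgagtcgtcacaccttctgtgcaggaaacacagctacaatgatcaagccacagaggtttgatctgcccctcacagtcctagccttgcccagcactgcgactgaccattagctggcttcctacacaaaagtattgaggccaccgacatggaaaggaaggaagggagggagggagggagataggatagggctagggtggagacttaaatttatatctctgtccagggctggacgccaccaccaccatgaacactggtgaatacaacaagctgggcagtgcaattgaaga
Stab2 (chr10:87007893-87008192, minus strand): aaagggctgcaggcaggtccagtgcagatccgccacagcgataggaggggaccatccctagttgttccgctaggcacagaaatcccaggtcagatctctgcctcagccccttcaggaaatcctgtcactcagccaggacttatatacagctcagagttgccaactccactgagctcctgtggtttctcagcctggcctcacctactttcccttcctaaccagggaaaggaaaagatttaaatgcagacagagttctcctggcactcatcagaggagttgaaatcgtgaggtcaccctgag
On both strands, the ETS core, known from endothelial promoters, was present in Mrc1 and Fcgr2b, starting at bases 40 and 220 of the printed stretch, and 23.8% of 32851 RefSeq promoters of the same length hold it. The GATA motif AGATAA (11.2% of promoters) and the MAF half-site TGCTGAC (4.67%) were not among the letters of the 5 promoters, Stab1 included. No match overlapped another, and the matches describe the sequence only.

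In endothelial cells as a whole, the members parted into 3 sets. Dnase1l3, Clec4g, Fcgr2b and Mrc1 were at least 1.5-fold higher in the knockout-labelled library, Lyve1 was lower, and Stab1, Stab2, Oit3, Gpr182 and Scarf1 stayed within 1.5-fold. So 4 of 10 were higher and 1 of 10 was lower. The set was not the same under every setting: Mrc1 was below this size, at a log2 ratio of 0.579 where 1.5-fold is 0.585, when each library was clustered on its own, and Stab2 passed, at 0.588, with a per-cell gate on the pan-endothelial markers. Genes with 20 or more counts in total and 10 or more CPM in either library were taken as measured, and all 10 members were. Over the 9080 genes measured in these cells, 5.22% were higher and 11.3% were lower by the same size. The median log2 ratio of the members was 0.24, against -0.05 over all measured genes. Different clusters made up most of the class in the libraries: cluster 2, led by Esm1 and Angpt2, held 981 of the 1811 cells labelled control, and cluster 0, led by Adam23 and Cyp26b1, held 2677 of the 3358 labelled knockout.

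Among the uptake receptors, Fcgr2b stood at 2774 CPM (2747 to 2802) in the control-labelled library and at 5618 CPM (5590 to 5646) in the knockout-labelled library, a 2.03-fold higher level. Mrc1 was at 1273 CPM (1254 to 1291) and 2158 CPM (2141 to 2175), 1.70-fold higher. The stabilins differed less. Stab1 was at 1337 and 1438 CPM, with a log2 ratio of 0.11 (0.08 to 0.13), and Stab2 at 1500 and 1832 CPM, with a log2 ratio of 0.29 (0.27 to 0.31). Scarf1, a scavenger receptor for acetylated lipoprotein and complement-coated dying cells, had few counts, at 138 and 112 CPM, and its log2 ratio was -0.30 (-0.38 to -0.21). The receptors of one uptake system thus did not move as 1 block, and the 2 stabilins and Scarf1 were those with little difference.

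Lyve1, a hyaluronan receptor of sinusoidal and lymphatic endothelium, went against the rest. It was at 4465 CPM (4430 to 4500) in the control-labelled library and at 1362 CPM (1349 to 1376) in the knockout-labelled library, 3.28-fold lower, with a log2 ratio of -1.71 (-1.73 to -1.69). No other member was lower by 1.5-fold. After Lyve1 the lowest log2 ratio was that of Scarf1.

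Of the surface lectin and identity genes, Clec4g, a C-type lectin of sinusoidal endothelium that binds glycans and T cells, was 2.43-fold higher, at 1296 CPM (1277 to 1315) and 3143 CPM (3122 to 3164). Dnase1l3, a secreted nuclease that cuts chromatin in blood, showed the highest ratio of the 10, with 2264 CPM (2239 to 2289) against 5770 CPM (5742 to 5798), 2.55-fold. Both ratios were above those of the uptake receptors. Gpr182, an atypical chemokine receptor, was at 1653 and 1891 CPM with a log2 ratio of 0.19 (0.17 to 0.22). Oit3, a zona pellucida domain protein found chiefly in liver, was at 1495 and 1627 CPM with a log2 ratio of 0.12 (0.10 to 0.15). These 2 genes were near equal in the libraries.

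**Figure D1:**
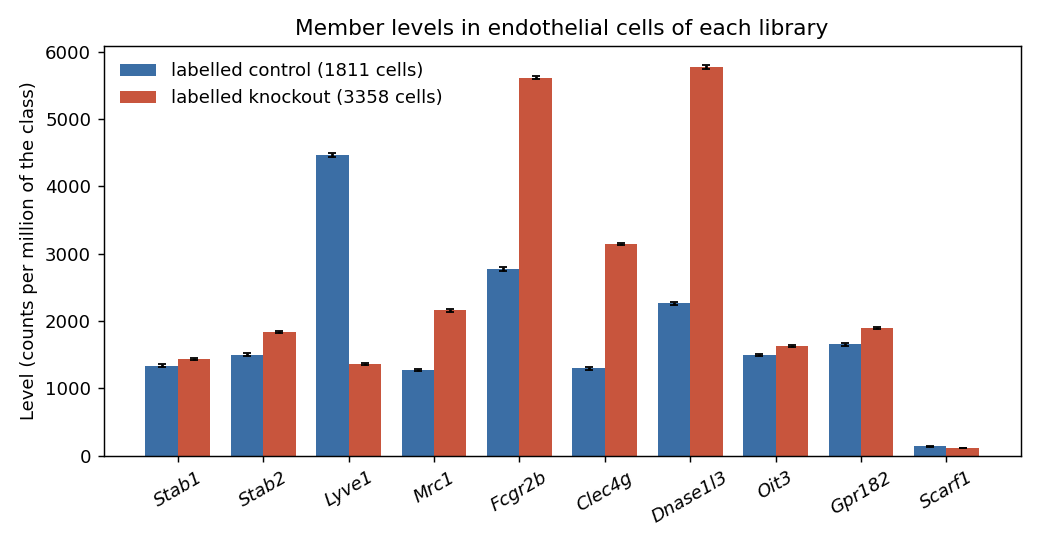
Level of each member in endothelial cells (y axis, CPM) in the control-labelled library (1811 cells, blue) and the knockout-labelled library (3358 cells, red), with 95% exact Poisson intervals that cover counting error only. Fcgr2b, Clec4g, Dnase1l3 and Mrc1 stand higher in red, Lyve1 falls from 4465 to 1362 CPM, and the other 5 pairs are close.

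The size of the higher set depended on the cells compared. Within cluster 0 alone, with 255 and 2677 cells, Dnase1l3 alone of the members was at least 1.5-fold higher (log2 ratio 0.69), against 6.61% of genes, and Clec4g and Fcgr2b had log2 ratios of 0.54 and 0.52. Within cluster 2 alone, with 981 and 244 cells, Fcgr2b, Clec4g and Dnase1l3 passed at 0.72, 0.66 and 0.76, against 5.82% of genes. Gpr182 turned its sign in both, to -0.15 and -0.10. Lyve1 was lower in each of the 7 endothelial clusters, with log2 ratios from -1.89 in cluster 10 to -0.92 in cluster 2. Within cluster 2 it still stood at 2728 CPM in the knockout-labelled library, compared with 1246 CPM in cluster 0 of that library. The cells of cluster 2 thus kept more Lyve1 in both libraries, at 5154 CPM against 3383 CPM in cluster 0 of the control-labelled library.

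Cluster 10 is led by Fmo2, Fbln2, Wnt9b and Rspo3, genes of central vein endothelium, and had 253 and 199 cells. Its makeup differed between the libraries. By the zone gates given below, 148 of the 253 cells labelled control were large-vessel and 48 pericentral. Of the 199 labelled knockout, 41 were large-vessel and 140 pericentral. The bearing of this split on the ratios was not tested. In cluster 10, Clec4g, Dnase1l3, Fcgr2b, Mrc1 and Stab2 were lower in the control-labelled library than in the class as a whole, and their ratios between the libraries were higher. Clec4g was at 295 CPM (272 to 318) and 1608 CPM (1552 to 1665), a log2 ratio of 2.45, and Dnase1l3 at 767 and 3872 CPM, a log2 ratio of 2.34. Stab2, Mrc1 and Fcgr2b were also higher, at 0.81, 1.05 and 1.13, so that 5 of 10 passed where 10.7% of genes did. Stab1 was at 1416 and 1566 CPM. In cluster 30, led by Gja5 and other genes of arteries and large vessels, with 53 and 42 cells, 5 of 10 members were higher (13.7% of genes), among them Oit3 at 260 and 495 CPM and Stab2 at 182 and 495 CPM. Clec4g was an exception there at 840 and 1001 CPM. Cluster 29, led by cell cycle genes such as Top2a and Mki67, with 79 and 44 cells, had 4 of 10 higher (12.3% of genes), and Clec4g stood at 423 and 1437 CPM.

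Counts of other cell types were present in the endothelial cells and differed between the libraries. All 7 Kupffer markers were at least 1.5-fold lower in the knockout-labelled library, with a summed level of 445 and 163 CPM, and none was at 0. Hepatocyte markers summed to 553 and 151 CPM and monocyte markers to 109 and 36.8 CPM, with 4 of 5 and 4 of 4 measured markers lower. Stellate markers summed to 311 and 169 CPM, with 3 of 5 lower, and both measured neutrophil markers were higher, with the list at 30.2 and 38.4 CPM. Over all genes measured in endothelial cells, 11.3% were lower and 5.22% were higher by the same size. In the 704 and 1460 endothelial cells without a count of any Kupffer marker, Lyve1 had a log2 ratio of -1.83, Mrc1 of 0.70 and Fcgr2b of 0.95. In all endothelial cells the log2 ratios of Lyve1, Mrc1 and Fcgr2b were -1.71, 0.76 and 1.02. A cell without a detected Kupffer-marker count can still hold other counts from macrophages, so this choice of cells does not remove them. The part of the other cell types was not tested.

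Single cells showed the same parting. Each cell was thinned to 2848 counts, the depth of the shallowest barcode. The median Lyve1 count per endothelial cell fell from 12 to 2, with 80% of cells between 2 and 25 in the control-labelled library and between 0 and 9 in the knockout-labelled library. No thinned Lyve1 count was found in 5.02% and 26.0% of these cells. Without thinning, 96.4% and 82.9% of endothelial cells had a Lyve1 count, beside 18.8% and 20.2% of hepatocytes, a type that should lack the gene, at median depths of 5569.5 and 6016.5 counts. In thinned hepatocytes these shares were 10.9% and 5.95%. The lower level therefore came with more cells lacking a count and also with lower counts among the rest.

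Median thinned counts went from 3 to 9 for Clec4g, from 7 to 17 for Dnase1l3, from 8 to 16 for Fcgr2b and from 3 to 6 for Mrc1. Cells with no thinned count made up 16.8% and 1.10% for Clec4g and 9.83% and 1.19% for Dnase1l3. Stab1 had a median of 4 in both libraries and was missing in 4.69% and 4.65% of cells. A median of 9 of the 10 members had a thinned count per endothelial cell in each library, and at least 8 had one in 86.5% and 94.0% of cells. In T cells and hepatocytes the medians were 0.5 and 0 members for the control-labelled library and 1 and 1 for the knockout-labelled library. Pairwise Pearson correlations were taken over the thinned endothelial cells on the logarithm of the count + 1. Clec4g and Dnase1l3 had the highest in the control-labelled library, 0.58 over 1811 cells. Fcgr2b with Dnase1l3 had the highest in the knockout-labelled library, 0.46 over 3358 cells. These cells share a library and the values describe them only.

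**Figure D2:**
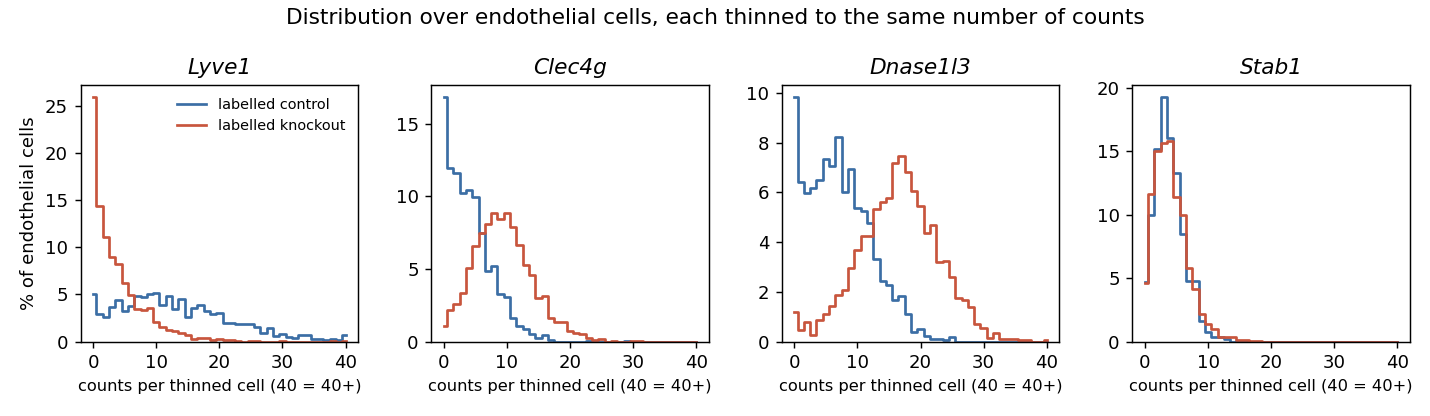
Share of endothelial cells (y axis, %) by count of the gene per cell (x axis, each cell thinned to 2848 counts, with 40 standing for 40 or more) for Lyve1, Clec4g, Dnase1l3 and Stab1 in the libraries labelled control (blue) and knockout (red). Lyve1 shifts to low counts with 26.0% of red cells at 0, Clec4g and Dnase1l3 shift to higher counts, and the Stab1 curves overlap.

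Zones of the sinusoid were gated per cell from marker genes other than the members: pericentral cells by genes such as Wnt2, Rspo3 and Kit, periportal cells by Efnb2, Ltbp4, Dll4 and others, angiogenic cells by Esm1, Angpt2 and Apln, and large-vessel cells by Vwf, Fbln2, Selp and others. The remaining cells are called other sinusoidal. The gates held 90 and 509 pericentral, 158 and 681 periportal, 507 and 237 angiogenic, 847 and 1870 other sinusoidal and 209 and 61 large-vessel cells in the libraries labelled control and knockout. Cells within 0.1 z-score units of a gate made up 12.9% and 11.7% of the endothelial cells, and a gate on a per-cell score is a range and not a cell type. The large-vessel gate took in central vein cells, since 148 of its 209 cells in the control-labelled library were in cluster 10.

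Lyve1 was lower in the knockout-labelled library in all 5 zones. Its log2 ratios were -1.85 in pericentral, -1.56 in periportal, -1.77 in other sinusoidal, -1.87 in large-vessel and -0.98 in angiogenic cells. Clec4g and Dnase1l3 were at least 1.5-fold higher in all 5 zones and Fcgr2b in 4, all but the large-vessel cells. Mrc1 was so in 3, the pericentral, angiogenic and other sinusoidal cells. In periportal cells Clec4g, at 2209 and 3315 CPM, and Fcgr2b, at 3842 and 5775 CPM, only just reached this size. Stab2 passed in pericentral cells only by this size rule, at 0.72 (0.63 to 0.82). Counted by zone, 5 of 10 members were higher in pericentral cells (12.5% of genes), 3 in periportal (8.28%), 4 in angiogenic (7.02%), 4 in other sinusoidal (5.97%) and 2 in large-vessel cells (12.1%). The 1 member lower in each zone was Lyve1, and the shares of genes lower were 18.0%, 12.0%, 12.6%, 12.1% and 17.7% in the same order.

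**Figure D3:**
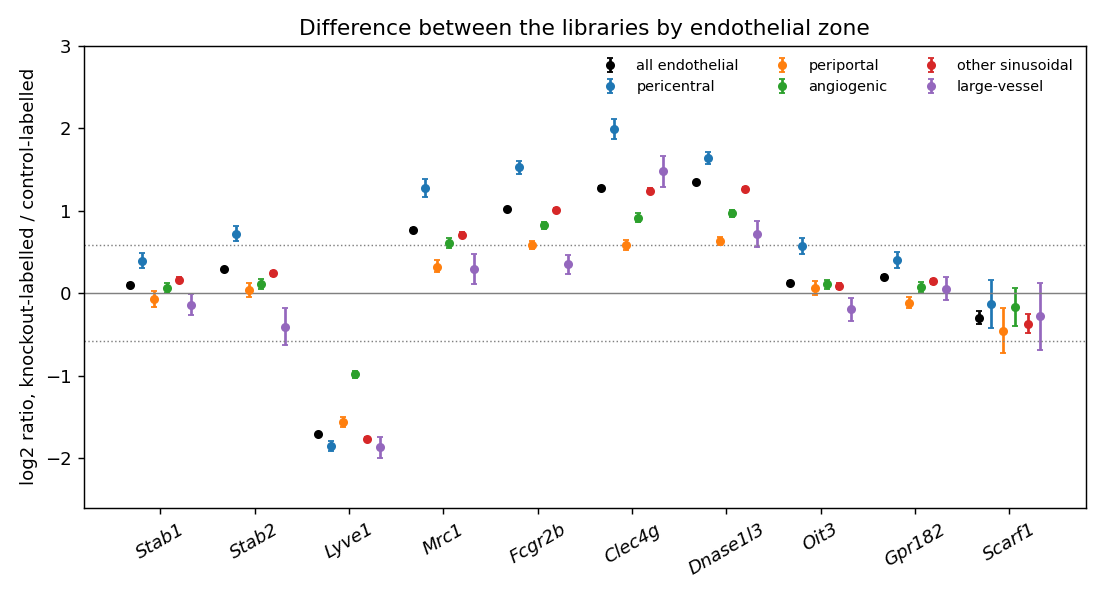
Log2 ratio of the knockout-labelled library to the control-labelled library (y axis) for each member, in all endothelial cells (black) and in 5 zones (colours), with 95% exact conditional intervals that cover counting error only; dotted lines mark 1.5-fold. Pericentral points (blue) lie highest for Mrc1, Fcgr2b, Clec4g and Dnase1l3, and every Lyve1 point lies below the lower dotted line.

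The levels by zone differed in the control-labelled library. Clec4g stood at 2209 CPM in periportal cells, at 1449 and 1420 CPM in angiogenic and other sinusoidal cells, whose intervals overlapped, at 685 CPM in pericentral and at 287 CPM in large-vessel cells. Dnase1l3 ran from 3979 CPM in periportal cells through 2461 and 2371 CPM in other sinusoidal and angiogenic cells to 1894 CPM in pericentral and 528 CPM in large-vessel cells. Fcgr2b had 3842 CPM in periportal, 3168 in angiogenic, 2961 in other sinusoidal, 1707 in pericentral and 1136 in large-vessel cells. These 3 genes were thus highest near the portal side and lowest in large vessels.

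Mrc1 had a like order, with 1782 CPM in periportal, 1450 in angiogenic, 1356 in other sinusoidal, 844 in pericentral and 498 in large-vessel cells. Gpr182 was at 2446 CPM in periportal cells, at 1729 and 1719 CPM in other sinusoidal and angiogenic cells with overlapping intervals, at 1191 CPM in pericentral and at 1011 CPM in large-vessel cells. Stab2 was highest in angiogenic cells at 1784 CPM and other sinusoidal cells at 1666 CPM, lower in periportal and pericentral cells at 1332 and 1226 CPM, whose intervals overlapped, and lowest in large-vessel cells at 488 CPM. So the large-vessel cells were lowest for each of these genes as well.

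Stab1, Oit3, Lyve1 and Scarf1 were flatter. Stab1 lay between 1066 CPM in periportal and 1438 CPM in angiogenic cells, with pericentral, other sinusoidal and large-vessel cells at 1297, 1333 and 1301 CPM and overlapping intervals. Oit3 ran from 1034 CPM in large-vessel cells through 1171 CPM in pericentral, 1421 CPM in periportal and 1538 CPM in other sinusoidal to 1723 CPM in angiogenic cells. Lyve1 was at 3444 and 3534 CPM in large-vessel and periportal cells, whose intervals overlapped, at 4114 CPM in pericentral, 4608 CPM in other sinusoidal and 5004 CPM in angiogenic cells. Scarf1 lay between 126 and 143 CPM, and all its zone intervals overlapped.

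In the knockout-labelled library, Fcgr2b stood at 5775 CPM in periportal and 4919 CPM in pericentral cells, Dnase1l3 at 6166 and 5925 CPM, Clec4g at 3315 and 2730 CPM, and Mrc1 at 2231 and 2039 CPM. Gpr182 was at 2261 and 1573 CPM. Stab1 was higher on the central side, at 1706 CPM against 1018 CPM, and Stab2 likewise at 2024 against 1373 CPM. Oit3 was at 1741 and 1486 CPM on the central and portal sides, Lyve1 at 1143 and 1198 CPM and Scarf1 at 126 and 102 CPM. Large-vessel cells were again lowest for Stab2, Mrc1, Fcgr2b, Clec4g and Dnase1l3, at 368, 609, 1448, 801 and 870 CPM. Other sinusoidal cells were near the levels of the class as a whole, with 5958 CPM for Fcgr2b and 3364 CPM for Clec4g.

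Taken as log2 ratios of pericentral to periportal cells, 5 of 10 members were at least 1.5-fold lower pericentrally in the control-labelled library: Clec4g at -1.69 (-1.82 to -1.56), Fcgr2b at -1.17, Mrc1 at -1.08, Dnase1l3 at -1.07 and Gpr182 at -1.04. The same size was reached by 12.6% of genes. None of the 10 was lower by that size in the knockout-labelled library (4.32% of genes), where Clec4g had -0.28 (-0.31 to -0.25) and Dnase1l3 -0.06 (-0.08 to -0.04). Stab1, at 0.74 (0.70 to 0.79), was the 1 member higher pericentrally there (5.93% of genes), and none was in the control-labelled library (16.8%). These calls held under some ways of drawing the zones and not under another. Zones of near equal size cut on each library's zone score again gave 5 and 0 members lower pericentrally (control, knockout). Scores from thinned cells gave 5 and 0 too. Sub-clusters made zones of another makeup. Their periportal zone took in 2464 of the 3358 cells labelled knockout, where the gate held 681. Sub-cluster 6 held 230 of the 234 pericentral cells labelled control, and sub-cluster 5 held 265 of the 288 labelled knockout. With zones taken from sub-clusters, 2 members were lower pericentrally in the knockout-labelled library, Fcgr2b at -0.76 and Clec4g at -0.77, and Stab1 no longer passed there, at 0.31. In the control-labelled library Gpr182 then missed the size, at -0.51, and Stab2 reached it, at -0.74. The difference between the libraries' zone ratios could not be tested with 1 library each.

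The pericentral cells were not of one makeup in the libraries. In the control-labelled library 48 of the 90 were in cluster 10, compared with 140 of 509 in the knockout-labelled library. The zone's own markers differed too: Wnt9b was at 308 and 64.1 CPM, Rspo3 at 544 and 351 CPM, Wnt2 at 188 and 330 CPM and Kit at 259 and 517 CPM. Fbln2, a vessel-wall gene of the large-vessel list, stood at 376 and 24.7 CPM in the same cells. The part of this makeup in the member values was not tested.

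Large-vessel cells stood apart from other sinusoidal cells in both libraries. Stab2, Mrc1, Fcgr2b, Clec4g, Dnase1l3 and Gpr182 were at least 1.5-fold lower there in the control-labelled library, 6 of 10 members against 7.14% of genes, and with Oit3 it was 7 of 10 in the knockout-labelled library against 14.4% of genes. Dnase1l3 had the widest gap in the knockout-labelled library, with 870 CPM in large-vessel and 5905 CPM in other sinusoidal cells (log2 ratio -2.76), and Clec4g in the control-labelled library (-2.30). Scarf1 did not differ beyond counting error in either, with log2 ratios of -0.00 (-0.21 to 0.20) and 0.09 (-0.29 to 0.45). Stab1 was level with other sinusoidal cells in the control-labelled library, at -0.03 (-0.10 to 0.03), and lower in the knockout-labelled library, at -0.34 (-0.45 to -0.23).

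Against other sinusoidal cells, no member differed 1.5-fold in angiogenic cells except Lyve1. In the knockout-labelled library Lyve1 was at 2530 CPM (2462 to 2600) in angiogenic and at 1355 CPM (1336 to 1373) in other sinusoidal cells, a log2 ratio of 0.90, and 1 of 10 members was higher and none lower, against 3.35% and 4.72% of genes. The same ratio was 0.12 (0.09 to 0.15) in the control-labelled library, where none of the 10 was higher or lower (2.08% and 4.25% of genes). Clec4g and Dnase1l3 had log2 ratios of -0.30 and -0.35 in the knockout-labelled library and of 0.03 and -0.05 in the control-labelled library.

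**Figure D4:**
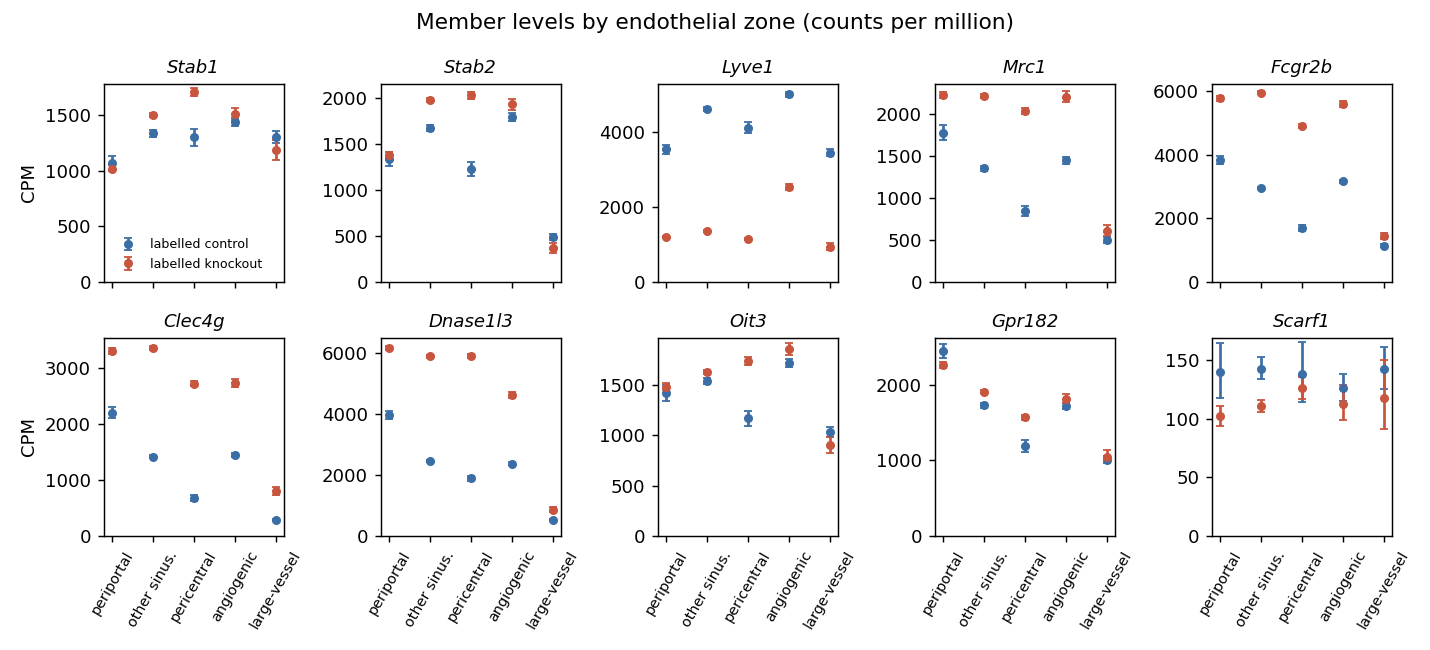
Level of each member (y axis, CPM from 0, own scale per gene) in 5 endothelial zones (x axis) of the libraries labelled control (blue) and knockout (red), with 95% exact Poisson intervals that cover counting error only. In blue, Clec4g, Dnase1l3, Fcgr2b, Mrc1 and Gpr182 are higher in periportal than in pericentral cells, while in red the gap is narrow for Dnase1l3 and Mrc1 and Lyve1 is highest in angiogenic cells at 2530 CPM.

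Outside endothelial cells, most members were found at a few percent of their endothelial level in most classes. Mrc1 and Scarf1 in the clusters named by Kupffer markers, Fcgr2b in monocytes and Dnase1l3 in some dendritic cells stood above most other members there. Hepatocytes, which should lack all 10, held 0.94% to 2.6% of the endothelial CPM in the control-labelled library and 0.77% to 4.1% in the knockout-labelled library. Stellate cells held between 2.9% and 13% and B cells and T cells between 1.1% and 11%. These low shares give a background against which a class is read. It was not even across classes: mesothelial cells (12% to 17% and 6.4% to 20%) and neutrophils (19% to 39% and 11% to 17%) held all 10 members at once.

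The cells named as Kupffer cells by the naming rule fell into a pair of clusters whose sizes differed between the libraries, so values are given by cluster. Unnamed clusters also held these markers, some of them above the level of cluster 4. Cluster 8, with 23 and 458 cells, was at 0.66 of the highest level. It also had endothelial markers at 0.35 and is left out here. Cluster 1 had 570 and 1384 cells in the libraries labelled control and knockout and was led by Cd163, Timd4 and Clec4f, markers of the resident macrophages of the sinusoid. Cluster 4 had 582 and 77 cells, was led by Mmp12, Gpnmb and Trem2, and had none of the Kupffer markers among its 10 leading genes, at a marker level of 0.43 of that of cluster 1. Mrc1, known to be expressed by Kupffer cells, stood at 962 CPM (939 to 986) and 1194 CPM (1180 to 1208) in cluster 1, or 75.6% and 55.3% of the endothelial level, and at 751 and 870 CPM in cluster 4. Stab1 differed little within either cluster, with 124 and 120 CPM in cluster 1 and 185 and 186 CPM in cluster 4. Stab2 was at 237 and 286 CPM in cluster 1 and at 125 and 126 CPM in cluster 4. Scarf1 in cluster 1 was at 28.7 and 36.8 CPM, or 20.9% and 32.8% of the endothelial level. Mrc1 thus had the highest share of the 10 members in both clusters. Fcgr2b, Clec4g, Dnase1l3, Oit3 and Gpr182 were at least 1.5-fold higher in the knockout-labelled library in each, 5 of 10 members against 5.11% of genes in cluster 1 and 12.7% in cluster 4. Fcgr2b was at 55.2 and 185 CPM in cluster 1, which is 1.99% and 3.29% of the endothelial level, beside 1.8% and 1.1% in hepatocytes. The median log2 ratio of the measured members was 0.75 and 0.52 in clusters 1 and 4. In lymphocytes it was also above 0, at 2.26 in natural killer or ILC1 cells, 0.45 in T cells and 0.39 in B cells. It was -0.01 in hepatocytes, -0.57 in neutrophils and -0.96 in plasma cells. The part of background counts in these differences was not tested.

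Fcgr2b was at 784 CPM (761 to 808) and 708 CPM (662 to 758) in monocytes, 28.3% and 12.6% of the endothelial level, in 905 and 146 cells. The monocytes were made up of cluster 6 (522 and 66 cells), where it stood at 856 and 997 CPM, and cluster 9 (383 and 80 cells), where it stood at 679 and 498 CPM, so that the clusters differed in direction. Dendritic cells were also of a pair of clusters. In cluster 17, led by Cd209a, with 182 and 86 cells, Fcgr2b was at 723 and 592 CPM, a log2 ratio of -0.29. In cluster 24, led by Xcr1, with 86 and 96 cells, it was at 280 CPM (248 to 316) and 593 CPM (554 to 634), a log2 ratio of 1.08. By size, 7 of 10 members were lower in the knockout-labelled library in cluster 17 (13.8% of genes), while in cluster 24 Fcgr2b, Clec4g and Dnase1l3 were higher (11.8% of genes) and Lyve1 was lower (9.85%). In B cells, where its product is known to inhibit the antigen receptor, Fcgr2b was at 11.3% and 6.8% of the endothelial level.

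Dnase1l3, known also from dendritic cells, was at 389 CPM (351 to 431) and 802 CPM (756 to 849) in the Xcr1-positive dendritic cells of cluster 24, 17.2% and 13.9% of the endothelial level. The other members stood between 6.4% and 13.5% of it there. In the 33 and 9 cells of cluster 36, which is led by Ccr7, Il12b and Ccl22 and was left unnamed, Dnase1l3 was at 943 CPM (832 to 1065) and 362 CPM (239 to 527). Those values were 41.7% and 6.28% of the endothelial level, and the other members in the control-labelled library ranged from 5.4% to 21%. This cluster was picked after its values had been seen.

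**Figure D5:**
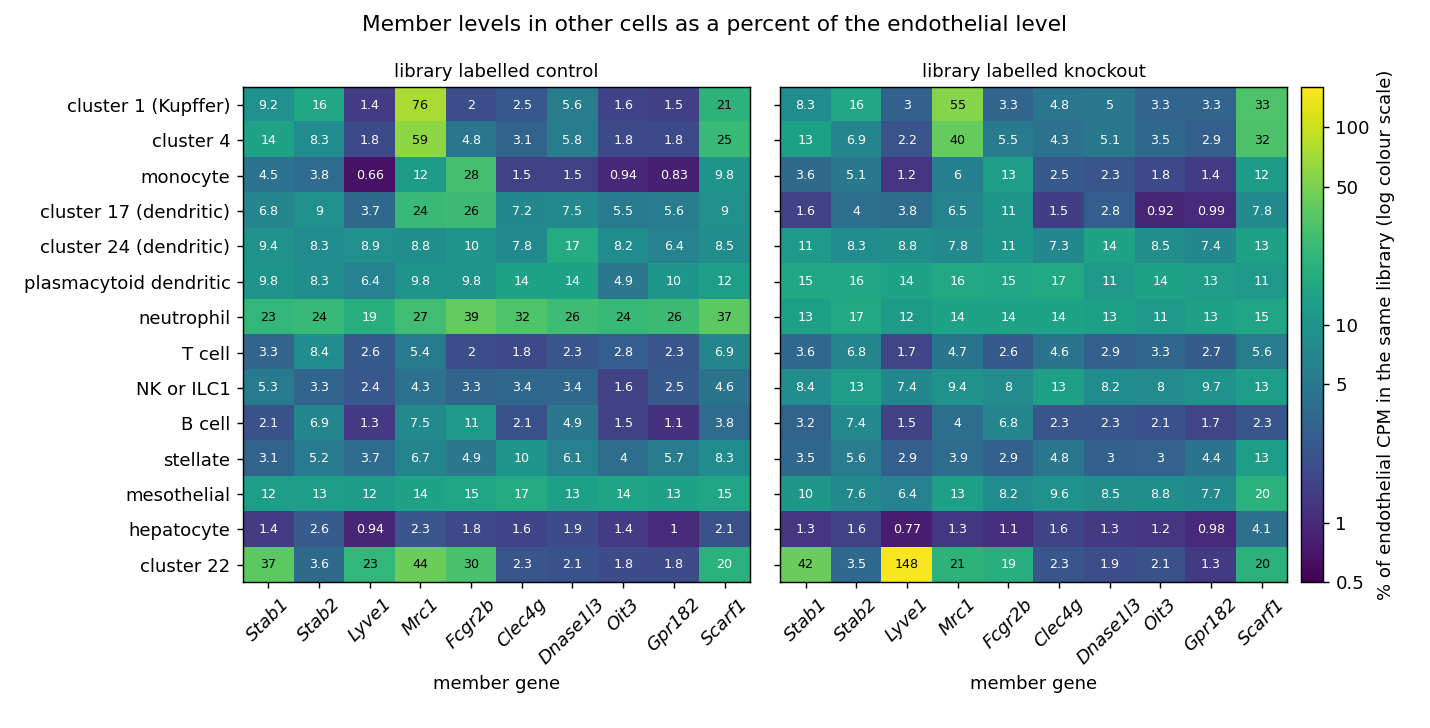
Member levels in 9 named classes and in clusters 1, 4, 17, 24 and 22 as a percent of the endothelial CPM of the same library (colour on a log scale, number in each cell), for the libraries labelled control (left) and knockout (right). Mrc1 in cluster 1 at 76% and 55% and monocyte Fcgr2b at 28% and 13% exceed the other values of their rows, hepatocytes are low throughout, and Lyve1 in cluster 22 reaches 148% at right.

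Over 12 classes in 2 libraries (24 points that share libraries and background counts, with clusters 1 and 4 pooled as 1 class and 17 and 24 as another), the 5 genes, of those ranked, whose levels ran most like the mean of the members were Gpihbp1, Arhgef15, Cldn5, Fam167b and Robo4, with Pearson r of log2(CPM + 1) from 0.955 to 0.963. Only genes of at least 50 CPM in endothelial cells of either library were ranked. The members, all marker genes and the further gene lists below were left out of the ranking. Gpihbp1, which carries lipoprotein lipase across capillary endothelium, was at 1582 and 1530 CPM in endothelial cells and Cldn5, an endothelial tight junction protein, at 214 and 337 CPM. Among the members themselves, Stab1 ran closest to the mean of the others (r = 0.96) and Fcgr2b least (r = 0.79), with Mrc1 at 0.80 and Lyve1 at 0.81.

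Of 9 further sinusoidal identity genes, all measured, 4 were at least 1.5-fold higher in knockout-labelled endothelial cells, against 5.22% of all genes, and none was lower, against 11.3%. Their median log2 ratio was 0.34, against -0.05 over all genes. Bmp2, which controls hepcidin in hepatocytes, was at 722 and 1752 CPM, the endocytic recycling gene Ehd3 at 2192 and 4512 CPM, Clec1b at 190 and 306 CPM and the transcription factor Meis2 at 355 and 562 CPM. The other 5 stayed within 1.5-fold, among them the transcription factors Gata4 at 412 and 521 CPM, Maf at 3085 and 3280 CPM and Tfec at 66.9 and 55.6 CPM. Bmp2 is also among the 10 leading genes of cluster 0, which held 255 and 2677 endothelial cells. This list and those below were taken over the whole endothelial class and not within clusters. The part of the cluster makeup in their values was not tested.

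Of 10 other uptake receptors listed, 9 were measured. Among these, 5 were lower, against 11.3% of all genes, 1 was higher, against 5.22%, and 3 stayed within 1.5-fold, with a median log2 ratio of -0.92. Cd36, a fatty acid and lipoprotein receptor, was at 1578 and 772 CPM, and Scarb1, the high-density lipoprotein receptor, at 300 and 159 CPM. Lrp1 was at 23.5 and 8.30 CPM and Marco at 15.3 and 2.58 CPM. Marco is also 1 of the 7 Kupffer markers that were lower in these cells. The lysosomal receptor Scarb2 was the 1 higher gene, at 307 and 462 CPM, and the scavenger receptor Msr1, at 371 and 493 CPM, was among those within.

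None of 16 clathrin coat, endosome and lysosome genes was 1.5-fold apart, where 5.22% of all genes were higher and 11.3% lower. Their median log2 ratio was 0.11. The protease genes Ctsb and Ctsl were at 1867 and 1315 CPM and at 948 and 1211 CPM. Of 9 genes typical of continuous capillaries, 7 were measured. Among these, 5 were lower, against 11.3% of all genes, and 1 was higher, against 5.22%, with a median of -1.02. Plvap, the protein of endothelial diaphragms, was at 1155 and 301 CPM, Fabp4 at 2292 and 1010 CPM, the basement membrane collagen gene Col4a2 at 873 and 430 CPM and Aplnr at 22.7 and 0.49 CPM, while Cav1, of caveolae, was higher at 15.3 and 43.8 CPM.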

How the data were processed

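The BD Rhapsody whole transcriptome assay was run on liver cells of 1 mouse for each genotype, per the labels' protocols. The authors deposited raw counts by gene symbol and barcode, made on build GRCm39 according to the submitters' processing notes. Aligner, cell calling and collapse of molecular identifiers: not given in the sources used here. The members and gene lists were chosen with earlier results of these data known.

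Filters of 300 genes, 500 counts and 25% mitochondrial counts left 7917 and 8799 of 10000 in the libraries labelled control and knockout. Lowest depths per barcode were 3311 and 2848 counts, and 2 barcodes occurred in both libraries. Scrublet's automatic threshold marked 0.0126% and 0.0114% of cells and had not worked, so the top 5% of scores were removed (367 and 424 cells). The 2000 most variable genes, without members and Ccn2, gave 30 principal components, 15 neighbours and 41 Leiden clusters at resolution 1.0 (Scanpy 1.11.5). A cluster was named at a marker level of at least 0.35 of the highest, with 3 markers in 10% of cells, the highest other lineage under 0.3 of that level and no more markers of another class among its 10 leading genes. A cluster with at least 3 of Mpo, Elane, Prtn3 and Ctsg among those leading genes was left unnamed. This rule left out cluster 15 (107 and 198 cells), which met the others for monocytes. Names stand for marker-like clusters, 15 clusters were left unnamed (27.0% and 18.2% of cells), and the naming thresholds and zone gates (z-score of 1, large-vessel 2) were set after the clusters had been seen. Cluster 23 (43 and 139 cells), led by long genes and with Stab2 at 204% and 201% of the endothelial level, was thus left out, at 0.72 for endothelial and 0.24 for dendritic markers. Cluster 4 passed for Kupffer cells without their markers among its leading genes and is described by number.

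Sums of counts per class and library were scaled to CPM, and exact Poisson intervals were computed. Ratios have exact conditional intervals and shares exact Clopper-Pearson intervals, all at 95%. Counts below 3 were set to 3 for ratios between the libraries and for the shares of genes. Member ratios between zones used the counts as they were. No p-value was computed, because each label has 1 library. Genes at least 1.5-fold apart were called by size alone. Levels of different genes were not compared. On Poisson counts simulated for 8638 genes, 95.0% of intervals covered the set ratio, which such intervals give by construction. Of 200 genes set to a change beyond 1.5-fold, 197 passed. This checked the code only and says nothing of the spread of the real counts. Named genes were all members, up to 4 genes per list with the largest log2 ratio past 1.5-fold or else the 2 of highest CPM, the 5 genes with profiles most like the members, and Ccn2. Others named (Gata4, Maf, Tfec, Msr1, markers, clusters) were chosen after their values were seen. Alternatives covered cell filters, doublets, clustering, scaling (edgeR 4.0.16 for TMM factors), thinning, gating and zones.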

Additional observations from a re-analysis of the deposited data

Results flagged for a closer look

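Lyve1 moved one way in endothelial cells and the other way in cluster 22. This cluster of 162 and 46 cells had no name under the naming rule. Its highest marker list was that of Kupffer cells at 0.31 of the highest level, and Cbr2, Fn1, Retnla, Spp1 and Arg1 were among its leading genes. Lyve1 was at 1020 CPM (972 to 1069) in the control-labelled library and at 2019 CPM (1922 to 2120) in the knockout-labelled library, a log2 ratio of 0.99 (0.89 to 1.08), whereas it was -1.71 in endothelial cells. Stab1 (501 and 605 CPM), Mrc1 (556 and 448 CPM) and Fcgr2b (845 and 1055 CPM) were found in the same cells, while Stab2, Clec4g, Dnase1l3, Oit3 and Gpr182 stood at 1.3% to 3.6% of their endothelial level. The difference between the 2 cell groups was not tested, and the cluster was picked after its values had been seen.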

How the results depend on the processing

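The count of members lower in endothelial cells was 1, Lyve1, under all 18 alternatives, 5 of them chosen after seeing the data, and its log2 ratio ran from -1.83 to -0.92. Mrc1 (0.30 to 0.98), Fcgr2b (0.52 to 1.25), Clec4g (0.54 to 1.58) and Dnase1l3 (0.69 to 1.62) kept their direction in all 18, as did Stab2 (0.08 to 0.59), and Gpr182 in 16. The number of members higher was 3 (without Mrc1) when the libraries were clustered separately and 5 (with Stab2) with a per-cell gate, and stayed within 1.5 times of 4 except in cluster 0 alone, where it was 1; the cause was not tested. The median log2 ratio of members, 0.24, became 0.21 at resolution 0.5, 0.0896 when the libraries were clustered separately, 0.51 with a per-cell gate, 0.18 with thinned cells, 0.18 as a mean of per-cell CPM, 0.38 with TMM factors, 0.37 with median-of-ratios factors, 0.29 in cluster 0, 0.15 without clusters 10 and 30 and 0.19 in cells without a Kupffer-marker count. TMM and median-of-ratios factors shift all genes by 0.14 and 0.13, which is their construction; for the other settings the cause was not tested. With zones from sub-clusters, 2 members were lower pericentrally in the knockout-labelled library, where the gates gave 0, as did the other zone settings. The zone directions of Scarf1 and Oit3 in the control-labelled library, and of Lyve1 and Stab2 in the knockout-labelled library, turned under at least 1 of 3 zone settings. No paired analysis was possible because each genotype label has 1 library, and no library could be left out. Depth limits Scarf1 most, with 1938 and 3173 counts in endothelial cells.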
